A study of Mus musculus with 24 samples.

Results

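Heat shock proteins and their partner chaperones were followed across hydronephrotic mouse kidneys as a set of 10 named genes: Hspa1a, Hspa1b, Hspa5, Hspa8, Hspb1, Hsph1, Hsp90aa1, Dnajb1, Bag3 and Cryab. The members were chosen by name, and a probe was taken as theirs when its accession belonged to the gene in RefSeq. By this rule 9 of the 10 genes were measured, by 13 probes, among 27954 genes tested in all. No probe was assigned to Hspa1b, which is not analysed here. Kidneys came from age-matched male mice, labelled as young adult and, by the study's methods, a few weeks old and just past weaning age, either mgb+/+ (6 control kidneys) or mgb-/- (18 kidneys), the megabladder line in which a bladder that does not empty leads to congenital hydronephrosis. By the degree of hydronephrosis in the labels, 7 of the mgb-/- kidneys were mild, 5 moderate and 6 severe. Every control carried the wild-type allele, so a grade within mgb-/- differs from control in both genotype and hydronephrosis. Total RNA of each snap-frozen whole kidney was labelled with Cy3 and hybridized to 1 array, and whether any mouse gave both of its kidneys is not stated in the sources used here, so p-values measure the spread between kidneys.

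Chaperones bind unfolded or partly folded proteins and keep them from aggregating. HSP70 proteins take up a client with the help of a J-domain protein such as Dnajb1, release it through a nucleotide exchange factor such as Hsph1 or Bag3, and can hand it on to HSP90, which finishes the folding of kinases and steroid receptors. Heat shock factor 1 (Hsf1) raises many of these genes under proteotoxic stress, the unfolded protein response raises Hspa5 in the endoplasmic reticulum, and in the kidney small heat shock proteins and HSP70 are known for their part in the medulla, where cells face high salt and urea.

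The DNA around the transcription start was searched for the motifs through which these inputs are known to act. RefSeq windows on GRCm38.p6, each covering 250 bases before the annotated start and 50 from it on, were held for 7 of the members. Hspa8, Hsp90aa1 and Cryab had no window. The windows were searched on both strands for an inverted pair of heat shock units, GAANNTTC or TTCNNGAA, for 3 such units in a row (GAA, TTC and GAA with 2 free bases between units), which contain both pairs, and for the endoplasmic reticulum stress element (CCAAT and CCACG with 9 free bases between them). Stretches are shown for Hspa1a, Hspb1 and Hspa5, whose matches lay before the start, and for Hsph1, which alone held 3 units, with the matches in capitals. Each runs 5′ to 3′ on the strand of its gene.
Hspa1a, chr17:34972157-34972286, minus strand: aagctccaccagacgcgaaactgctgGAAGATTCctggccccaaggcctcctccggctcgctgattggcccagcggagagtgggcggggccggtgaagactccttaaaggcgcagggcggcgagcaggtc
Hspb1, chr5:135887789-135887918, plus strand: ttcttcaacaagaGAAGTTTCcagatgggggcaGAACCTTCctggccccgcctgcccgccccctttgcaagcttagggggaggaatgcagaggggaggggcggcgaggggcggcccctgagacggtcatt
Hspa5, chr2:34771960-34772089, plus strand: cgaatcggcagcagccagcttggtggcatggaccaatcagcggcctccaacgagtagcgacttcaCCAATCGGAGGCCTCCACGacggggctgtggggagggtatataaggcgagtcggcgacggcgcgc
Hsph1, chr5:149636280-149636308, minus strand: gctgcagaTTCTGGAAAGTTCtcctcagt

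A heat shock pair began 104 bases before the start of Hspa1a, and 117 and 97 bases before that of Hspb1. The Hspa1b window, on the same chromosome, had its pair at the same place and differed from that of Hspa1a at 4 of 300 bases. Hsph1 held the run of 3 units, 15 bases after one of its annotated starts and 36 after the other, and a separate pair before both. The endoplasmic reticulum stress element lay 65 bases before the start of Hspa5. Bag3 had a pair only after its start, and Dnajb1 had no match. Of 32851 windows in the whole table, 15.1% held one pair or the other, 0.603% held 3 units and 0.119% held the endoplasmic reticulum stress element. A match is a description of letters and not evidence of binding.

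In mgb-/- against control kidneys, 2 of the 9 measured members fell and none rose. Hsp90aa1, the stress-inducible cytosolic HSP90, was 1.56-fold lower, and Hsph1, the HSP110 exchange factor of HSP70, was 1.52-fold lower. Of all genes tested, 8.01% fell and 5.34% rose at the same threshold, an adjusted p under 0.05 in limma. At an unadjusted p under 0.05, 4 members were lower and 0 higher, where 29% of all genes passed in either direction. The median log2 difference of the 9 members was -0.10, beside 0.01 over all genes. No member differed by 2-fold or more with an adjusted p under 0.05, a size reached by 1.26% of genes downward and 1.83% upward. In whole-kidney RNA, fewer cells of a type and less RNA per cell cannot be told apart. Levels below are log2 signals relative to the 75th percentile of the same array, and they are not compared between genes.

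**Figure D1:**
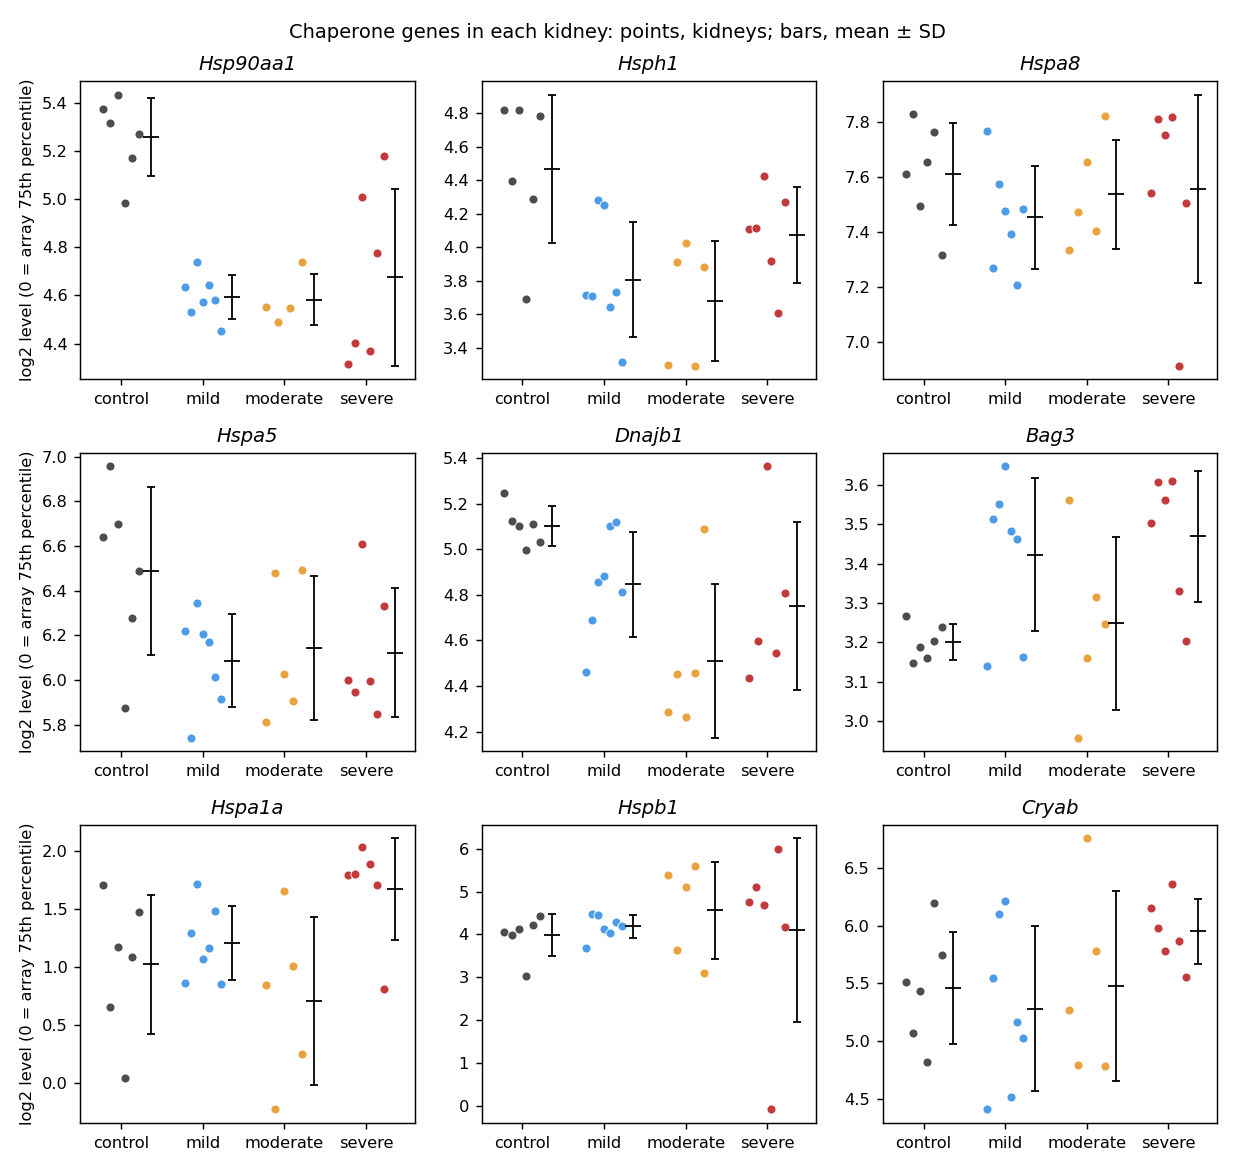
Log2 level of the 9 measured members in every kidney (y axis, 0 is the array's 75th percentile) by group (x axis), each point 1 kidney and each bar the mean ± SD. Hsp90aa1 separated all mild and moderate kidneys from control, whereas Hspa1a and Cryab overlapped between control and every grade.

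Hsp90aa1 was the member with the clearest difference. Its log2 level ran from 4.98 to 5.43 in control kidneys (median 5.29), from 4.45 to 4.74 in mild (median 4.58) and from 4.31 to 5.18 in severe kidneys (median 4.59), and was 4.49, 4.55, 4.55 and 4.74 in the 4 moderate kidneys with a value. All mild and moderate kidneys with a value lay below every control, and so did 4 of the 6 severe kidneys, while severe replicates 3 and 6 lay within the control range. Moderate replicate 2 had no value, because its spots were marked as outliers, and was left out of the fit for this gene. The difference from control was -0.64 on the log2 scale (SE 0.10, adjusted p = 0.00104), with 17 of 17 kidneys below the control mean.

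Taken grade by grade, Hsp90aa1 stood at -0.66 for mild (adjusted p = 0.00491), at -0.68 for moderate (adjusted p = 0.0318) and at -0.58 for severe kidneys (adjusted p = 0.00833). It was the only member past the test in each of these 3 comparisons, which share the same 6 controls. Of all genes, 3.01% fell and 3.01% rose for mild, 0.554% fell and 0.647% rose for moderate, and 9.58% fell and 6.57% rose for severe kidneys. Every mild kidney lay below every control for 6.08% of genes, and every moderate kidney did so for 1.84%. These shares are over the 27629 genes with a value on every array, which leaves Hsp90aa1 out. The moderate share asks for 5 kidneys below every control, while Hsp90aa1 had 4 with a value. On the 3 slides, each with 2 controls, the mgb-/- mean minus the control mean was -0.65, -0.50 and -0.74. The moderate call was lost without moderate replicate 1 (adjusted p = 0.125), 3 (0.0814) or 4 (0.0963), without control replicate 1 (0.0597), 2 (0.0579), 3 (0.0793) or 6 (0.0627), when arrays were scaled by the median (0.0835), and with the replicate number as a block (-0.66, adjusted p = 0.0837). The severe call was lost in a fit on the compared groups alone (adjusted p = 0.0589).

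Hsph1 was lower in every mgb-/- kidney than the control mean, but the groups overlapped. Control kidneys ran from 3.69 to 4.82 (median 4.59), mild from 3.32 to 4.28 (median 3.72) and severe from 3.61 to 4.43 (median 4.11), and the moderate kidneys were at 3.29, 3.29, 3.88, 3.91 and 4.03. The lowest control, replicate 4, lay 0.60 below the next one. The log2 difference over all mgb-/- kidneys was -0.61 (SE 0.17, adjusted p = 0.0249), and by slide it was -0.59, -0.48 and -0.75.

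The grades of Hsph1 did not pass on their own. Mild kidneys differed from control by -0.66 on the log2 scale (adjusted p = 0.0508), moderate by -0.79 (adjusted p = 0.067) and severe by -0.39 (adjusted p = 0.196). The second probe of the gene gave -0.56 over all mgb-/- kidneys (adjusted p = 0.0635). The call over all mgb-/- kidneys was lost without control replicate 1 (adjusted p = 0.0712), 3 (0.0816) or 6 (0.0662), with quantile normalization (0.0877) and in the authors' normalized table (0.0856).

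Hspa8 encodes the constitutive HSP70 of the cytosol, and its 3 probes did not give the same answer. On the brightest probe the log2 level ran from 7.31 to 7.83 in control (median 7.63), from 7.21 to 7.77 in mild (median 7.48) and from 6.91 to 7.82 in severe kidneys (median 7.65), with 7.33, 7.40, 7.47, 7.65 and 7.82 in moderate kidneys. These groups overlapped throughout, and the difference was -0.10 (SE 0.11, adjusted p = 0.599). In a fit on all probes, the second probe gave -0.37 (adjusted p = 0.073) and the dimmest -0.59 (adjusted p = 0.0483).

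In severe kidneys the gap between the Hspa8 probes was wider. In the fit on all probes the log2 difference from control was -0.05 on the brightest probe (adjusted p = 0.836), -0.49 on the second (adjusted p = 0.0485) and -0.83 on the dimmest (adjusted p = 0.0232). With the mean of the 3 probes in place of the brightest, Hspa8 fell by 0.35 over all mgb-/- kidneys (adjusted p = 0.0353) and by 0.46 in severe kidneys (adjusted p = 0.0247). Which transcripts each probe detects was not tested. On the dimmest probe the control range was 5.52 to 6.25, and 5 of the 6 severe kidneys lay below it, between 4.51 and 5.49.

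**Figure D2:**
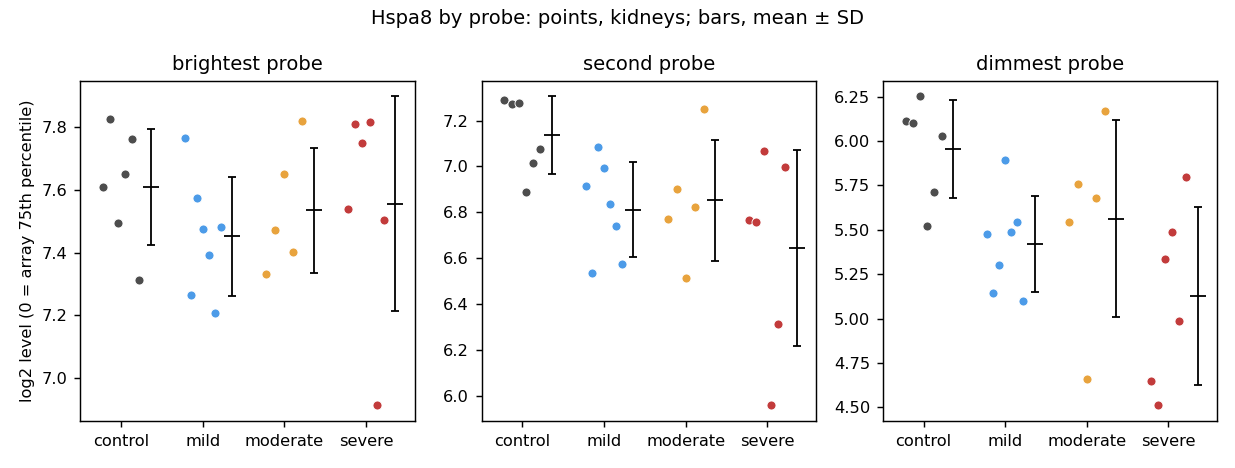
Log2 level of Hspa8 (y axis, 0 is the array's 75th percentile) by group (x axis) on each of its 3 probes, each point 1 kidney and each bar the mean ± SD. Groups overlap on the brightest probe, and severe kidneys sit lower on the dimmest probe, at 5.13 ± 0.50 against 5.95 ± 0.28 in control.

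Hspa1a, the HSP70 that is induced by stress, varied more between kidneys than between genotypes. Control kidneys ran from 0.04 to 1.70 (median 1.13), mild from 0.85 to 1.71 (median 1.16) and severe from 0.80 to 2.03 (median 1.80), and the moderate kidneys were at -0.23, 0.25, 0.84, 1.01 and 1.66. Of the severe kidneys, 5 of 6 lay above every control, and replicate 6 lay within the control range. Over all mgb-/- kidneys the log2 difference was 0.20 (SE 0.28, adjusted p = 0.677).

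In severe kidneys alone the Hspa1a difference from control was 0.65 (SE 0.29, adjusted p = 0.13). Without severe replicate 6 it was 0.82 (adjusted p = 0.0396). It passed in 2 of 37 alternatives, with a range of 0.45 to 0.82 and an adjusted p of up to 0.295. Within slides the severe minus control difference was 0.93, 1.00 and 0.17, each from 1 to 3 severe and 2 control kidneys. Because Hspa1a and Hspa1b are near-identical genes, a probe for one can read the other, and the value is uncertain to that extent.

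Dnajb1, the J-domain partner that delivers clients to HSP70, had tightly grouped controls. Their log2 level ran from 5.00 to 5.25 (median 5.11), against 4.46 to 5.12 in mild (median 4.86) and 4.44 to 5.36 in the 5 severe kidneys with a value (4.44, 4.55, 4.60, 4.81 and 5.36), and 4.26, 4.29, 4.45, 4.46 and 5.09 in moderate kidneys. Of 17 mgb-/- kidneys with a value, 13 lay below every control and 1 above. Severe replicate 4 had no value and was left out of the fit for this gene.

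The Dnajb1 difference missed the threshold at -0.38 (SE 0.14, adjusted p = 0.0633). Moderate kidneys were at -0.59 (adjusted p = 0.0703), severe at -0.35 (adjusted p = 0.145) and mild at -0.26 (adjusted p = 0.353). It passed over all mgb-/- kidneys without severe replicate 3 (-0.42, adjusted p = 0.0296), moderate replicate 5 (-0.41, adjusted p = 0.0419) or mild replicate 6 (-0.41, adjusted p = 0.0496). In all, 7 of 37 alternatives passed, with a range of -0.53 to -0.22 and an adjusted p of up to 0.238. In severe kidneys 1 of 37 passed, with a range of -0.50 to -0.0041. Within slides the mgb-/- minus control value was -0.54, -0.24 and -0.37.

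Bag3 couples HSP70 to small heat shock proteins and to autophagy, and its controls were the most tightly grouped of the 9 members, at 3.20 ± 0.05 (SD, n = 6). They ran from 3.15 to 3.27, mild kidneys from 3.14 to 3.65 (median 3.48) and severe kidneys from 3.20 to 3.61 (median 3.53), and moderate kidneys were at 2.96, 3.16, 3.25, 3.31 and 3.56. In both mild and severe kidneys 5 lay above every control. The difference over all mgb-/- kidneys was 0.19 (SE 0.09, adjusted p = 0.173) and in severe kidneys 0.27 (SE 0.11, adjusted p = 0.088).

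Bag3 passed in severe kidneys in 5 of 37 alternatives, which ranged from 0.095 to 0.45 with an adjusted p of up to 0.755. Among those that passed, the difference was 0.45 with quantile normalization (adjusted p = 0.0186), 0.39 in the authors' table (adjusted p = 0.0359) and 0.32 without severe replicate 6 (adjusted p = 0.032). Over all mgb-/- kidneys 1 of 37 passed, with a range of 0.033 to 0.32. Slide by slide, the mgb-/- minus control value was 0.19, 0.17 and 0.20.

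Hspa5 (BiP) is the HSP70 of the endoplasmic reticulum and the classic target of the unfolded protein response. Its log2 level ran from 5.88 to 6.96 in control (median 6.57), from 5.74 to 6.34 in mild (median 6.17) and from 5.85 to 6.61 in severe kidneys (median 6.00), with 5.81, 5.90, 6.03, 6.48 and 6.49 in moderate kidneys. All grades overlapped the controls, of which replicate 4 was the lowest. The difference was -0.38 (SE 0.14, adjusted p = 0.0679), with 16 of 18 mgb-/- kidneys below the control mean.

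Hspa5 was past the test without control replicate 4 (-0.50, adjusted p = 0.0249), without severe replicate 3 (-0.40, adjusted p = 0.0458), or without moderate replicate 2 (adjusted p = 0.0482) or 5 (adjusted p = 0.0452). Over all mgb-/- kidneys 8 of 37 alternatives passed, with a range of -0.53 to -0.27 and an adjusted p of up to 0.197. The 3 grades lay close together, mild at -0.40 (adjusted p = 0.158), moderate at -0.35 (adjusted p = 0.312) and severe at -0.37 (adjusted p = 0.149). In severe kidneys 0 of 37 alternatives passed, with a range of -0.54 to -0.075. Within slides the mgb-/- minus control value was -0.26, -0.39 and -0.48.

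The small heat shock proteins Hspb1 (HSP25) and Cryab (alpha B-crystallin) hold unfolded proteins without ATP. Hspb1 ran from 3.04 to 4.44 in control (median 4.09), from 3.69 to 4.49 in mild (median 4.20) and from -0.07 to 5.99 in severe kidneys (median 4.72), and was at 3.10, 3.63, 5.11, 5.38 and 5.59 in moderate kidneys. The SD was 0.49 for control, 0.27 for mild and 1.12 for moderate kidneys, and for severe kidneys it was 2.13, or 0.67 without replicate 4. The difference over all mgb-/- kidneys was 0.29 (SE 0.53, adjusted p = 0.766).

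The lowest Hspb1 value belonged to severe replicate 4, an array with 660 spots marked as outliers against 102 to 261 on the others and a median correlation of 0.935 with the other arrays. Without that kidney the severe minus control difference was 0.97 in place of 0.13 and the mgb-/- minus control difference was 0.54. Neither passed the test. Within slides the mgb-/- minus control value was 1.13, 0.22 and -0.49.

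Cryab did not separate the groups. Its log2 level ran from 4.82 to 6.19 in control (median 5.47), from 4.41 to 6.22 in mild (median 5.16) and from 5.56 to 6.36 in severe kidneys (median 5.92), with 4.79, 4.80, 5.27, 5.78 and 6.76 in moderate kidneys. All 6 severe kidneys lay above the control mean and 1 lay above every control. The difference was 0.10 over all mgb-/- kidneys (SE 0.29, adjusted p = 0.862) and 0.49 in severe kidneys (SE 0.34, adjusted p = 0.337), and the second Cryab probe gave 0.10 and 0.39.

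**Figure D3:**
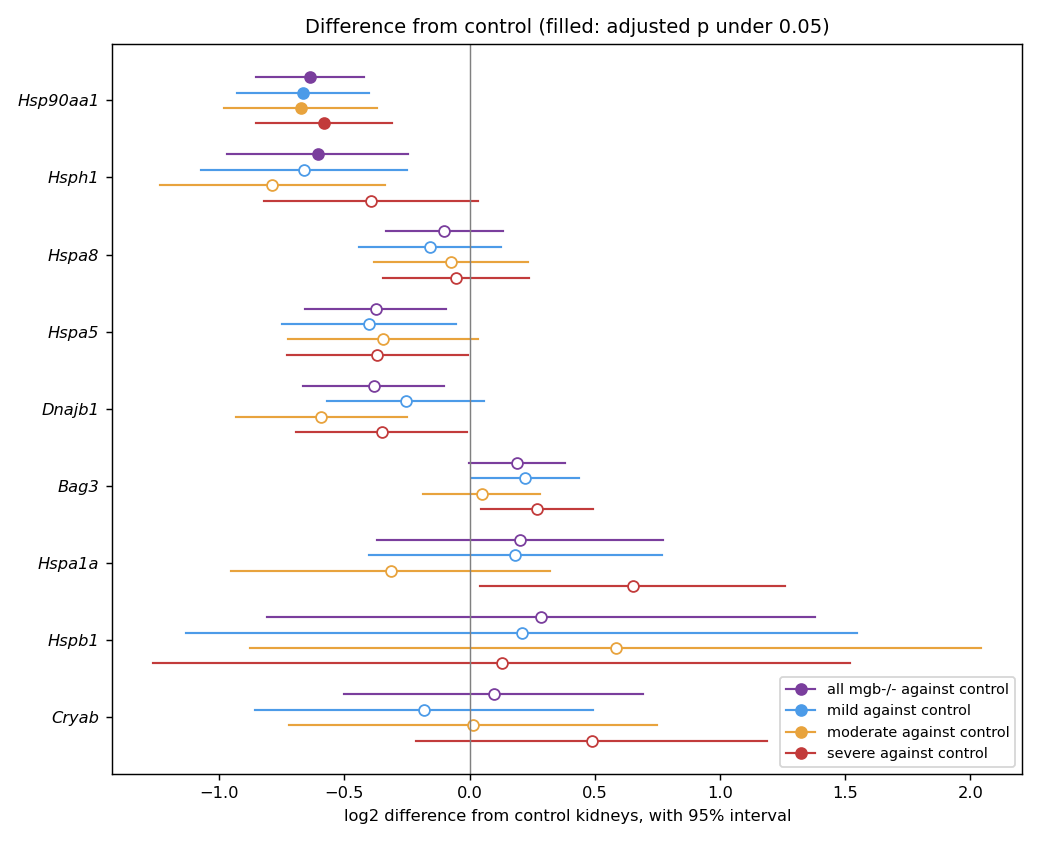
Log2 difference from control with its 95% interval (x axis) for each member (y axis), over all mgb-/- kidneys and for each grade, with filled points past an adjusted p of 0.05. The 4 filled points of Hsp90aa1 lie between -0.68 and -0.58, and the only other filled point is Hsph1 over all mgb-/- kidneys at -0.61.

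No member differed between grades in limma at an adjusted p under 0.05. Severe against mild kidneys gave 0 members at an unadjusted p under 0.05, moderate against mild 1 and severe against moderate 1, where 11.1%, 6.67% and 10.4% of all genes passed. At the adjusted threshold the shares of all genes were 0.587%, 0% and 0.00715%. With array quality weights 1 member passed, Dnajb1, at 0.68 in severe against moderate kidneys (SE 0.18, adjusted p = 0.0375), with severe replicate 4 lacking a value. Without weights, the main limma fit gave 0.24 for Dnajb1 in the same comparison (SE 0.17, adjusted p = 0.612). The other members named here are those with the lowest p in each comparison. Hspa1a was 0.97 higher on the log2 scale in severe than in moderate kidneys (SE 0.31, 95% interval 0.33 to 1.60, adjusted p = 0.301), and this difference was 0.88 and 1.86 on 2 slides and -0.16 on the slide with 1 moderate kidney. Cryab was 0.67 higher in severe than in mild kidneys (95% interval -0.01 to 1.34, adjusted p = 0.453). Dnajb1 was -0.34 in moderate against mild kidneys (95% interval -0.67 to -0.01, adjusted p = 0.739). For Hsp90aa1, severe minus mild was 0.08 with a 95% interval of -0.18 to 0.34, the interval within which a difference between these grades could lie.

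Some pairs of members deviated together between kidneys of one group. Pairs of other genes were not tested, so the counts have no share over all genes beside them. Of 36 pairs, tested on deviations from the group mean with 100000 permutations of kidneys within groups, 3 passed after Benjamini-Hochberg adjustment and all 3 correlations were positive, while 7 pairs had an unadjusted p under 0.05. By rho 6 pairs passed, the same 3 and Hspa5 with Dnajb1 (adjusted p = 0.0383), Hsp90aa1 with Dnajb1 (0.0383) and Hspa1a with Hspb1 (0.0432), which were named after their values were seen. Hspa5 correlated with Hsph1 (r = 0.72, rho = 0.73, permutation p = 0.00048 and 0.00024, adjusted p = 0.0072 and 0.00702). Hspa5 correlated with Hsp90aa1 (r = 0.67, rho = 0.73, permutation p = 0.0006 and 0.00039, adjusted p = 0.0072 and 0.00702).

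The third pair joined Hspa1a with Cryab (r = 0.68, rho = 0.67, permutation p = 0.00054 and 0.00152, adjusted p = 0.0072 and 0.0182). Without the 2 kidneys farthest from the median of the first gene, r was 0.61, 0.56 and 0.62 for the 3 pairs in the order given. Within the 3 slides r was 0.86, 0.76 and 0.65 for Hspa5 with Hsph1, 0.78, 0.71 and 0.85 for Hspa5 with Hsp90aa1, and 0.48, 0.57 and 0.84 for Hspa1a with Cryab. Control replicate 4 was the lowest control for all 5 of these genes, and without it 0 of the 36 pairs passed, while r stayed at 0.62, 0.61 and 0.58 or above under the omission of any 1 kidney. The lowest correlation was that of Hspa8 with Hspb1 (r = -0.50, rho = -0.43, permutation p = 0.124 and 0.0445, adjusted p = 0.365 and 0.146), followed by Hspb1 with Dnajb1 (r = -0.39, rho = -0.36, permutation p = 0.168 and 0.133, adjusted p = 0.404 and 0.286) and Hsp90aa1 with Bag3 (r = -0.26, rho = -0.18, permutation p = 0.299 and 0.457, adjusted p = 0.598 and 0.659).

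**Figure D4:**
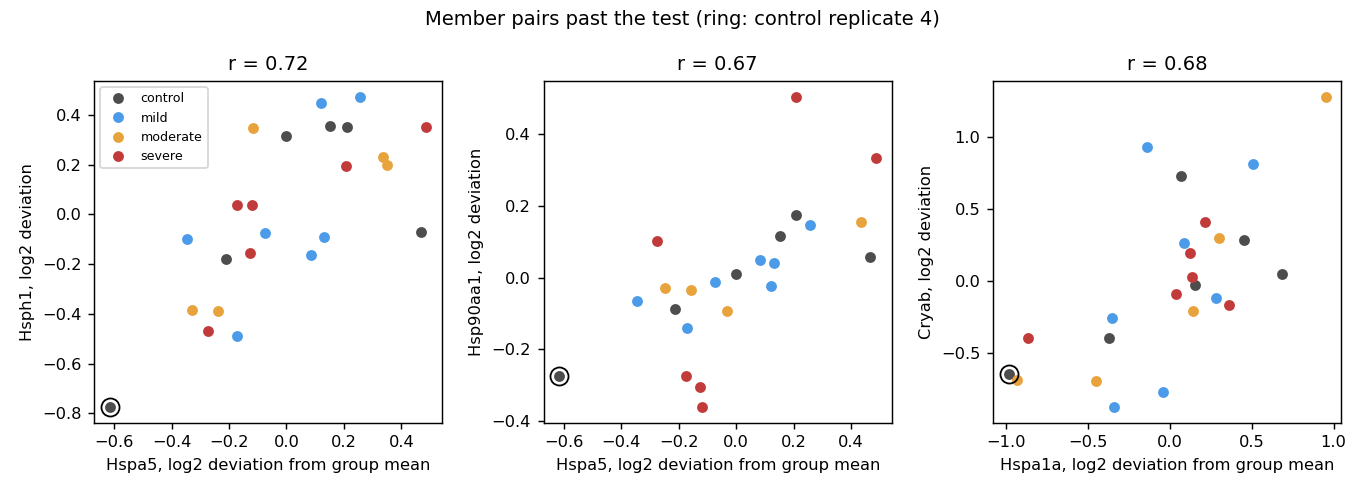
Deviation of each kidney from its group mean (log2) for the 3 pairs of members past the test, coloured by group, with control replicate 4 ringed. Points rise from lower left to upper right with r of 0.72, 0.67 and 0.68.

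Across all 24 kidneys the genes most like each member were looked up among 27628 others by Pearson correlation of the levels, given as a description. Hspa5 was closest to Creld2 (r = 0.93) and Hsp90b1 (r = 0.90), a pair of endoplasmic reticulum proteins. Cryab was closest to Hspb2 (r = 0.89), its neighbour on the chromosome and itself a small heat shock protein, and to Ahrr (r = 0.88). Hspa1a was closest to Proser2 (r = 0.85) and Wnt7b (r = 0.83), Bag3 to Hrh3 and Purb (both r = 0.76), and Hsph1 to Gm5129 (r = 0.86) and a transcript without a symbol (r = 0.85). Hspb1 was closest to Plec (r = 0.96) and Tm6sf1 (r = 0.94), which were 0.89 and 0.86 without severe replicate 4. The 2 transcripts closest to Hspa8 (r = 0.95 and 0.91) have no symbol here because names came only through RefSeq. What they encode was not looked up. Hsp90aa1 and Dnajb1 were left out because 1 kidney had no value.

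The rest of the chaperone machinery was read from a wider list of 82 genes, of which 80 were measured. In mgb-/- against control kidneys 22 of these fell and 3 rose, and the median log2 difference was -0.26 against 0.01 over all genes, with 67 of 80 below 0. In mild kidneys 12 fell and 1 rose, in moderate kidneys 1 fell and 0 rose, and in severe kidneys 22 fell and 2 rose. Of all genes, 8.01% fell and 5.34% rose over all mgb-/- kidneys. For the mild, moderate and severe grades 3.01%, 0.554% and 9.58% fell, and 3.01%, 0.647% and 6.57% rose. These are also the shares beside which the counts of each list below stand. Between grades 0 passed in limma at the adjusted threshold. An unadjusted p under 0.05 was found for 7 of the 80 genes in severe against mild, 6 in moderate against mild and 5 in severe against moderate kidneys. Of all genes, 11.1%, 6.67% and 10.4% had such a p in these comparisons. With array quality weights 4, 4 and 3 passed in these comparisons, and quantile normalization and the authors' table each gave 1 in severe against mild kidneys. The shares of all genes under these settings are not given here. Leaving out 1 kidney moved the count past the test from 25 to between 13 and 32 over all mgb-/-, from 13 to between 5 and 18 in mild, from 1 to between 0 and 9 in moderate, and from 24 to between 5 and 32 in severe kidneys. The lowest counts came without control replicate 3 over all mgb-/- kidneys and without severe replicate 2 in severe kidneys, and in mild kidneys without control replicate 1 or 3 or mild replicate 2 or 7.

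Cytosolic partners of HSP70 and HSP90 were the group with the most falls, 9 of 24 measured. Hsp90ab1, the constitutive HSP90, fell by 0.49 (SE 0.09, adjusted p = 0.00293), Dnaja1, a J-domain protein, by 0.75 (SE 0.16, adjusted p = 0.00478), Ahsa1, which activates the HSP90 ATPase, by 0.50 (SE 0.11, adjusted p = 0.00598), and Chordc1, an HSP90 co-chaperone, by 0.73 (SE 0.17, adjusted p = 0.00886). Each of these was below the control mean in 18 of 18 mgb-/- kidneys. The others were Dnaja4, Fkbp4, Stip1, Hspa4l and St13. Dnajb4 was the single rise, at 0.88 (SE 0.20, adjusted p = 0.00721), with 18 of 18 kidneys higher than the mean of the controls.

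In the endoplasmic reticulum 6 of 18 genes fell and 0 rose. They were the disulfide isomerases Pdia3 (-0.56, SE 0.09, adjusted p = 0.000904) and Pdia6 (-0.38, SE 0.09, adjusted p = 0.00906), the BiP partner Dnajb11 (-0.46, adjusted p = 0.0136), the lectin chaperone Calr (-0.45, adjusted p = 0.0146), Hsp90b1, the HSP90 of this compartment (-0.35, adjusted p = 0.0221), and Manf (-0.57, adjusted p = 0.0232). Pdia3 was also past the test in mild, moderate and severe kidneys, at -0.59, -0.51 and -0.57. Hspa5 itself, with -0.38, was of the same size as Pdia6 but more variable.

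Among mitochondrial chaperones the median log2 difference from control was -0.23 for mild, -0.27 for moderate and -0.47 for severe kidneys. The chaperonin pair Hspd1 (-0.63, adjusted p = 0.0163) and Hspe1 (-0.56, adjusted p = 0.0301) were the 2 of 9 that fell over all mgb-/- kidneys. In severe kidneys 6 of 9 fell, Hspd1 by 0.80 (adjusted p = 0.0128), Trap1, the mitochondrial HSP90, by 0.66 (adjusted p = 0.0276), Dnaja3 by 0.47 and the protease Lonp1 by 0.38, with Hspe1 and Clpp. In mild and in moderate kidneys 0 of 9 passed, and between severe and mild kidneys 0 passed with a median of -0.23.

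The cytosolic chaperonin TRiC, which folds actin and tubulin, had 2 of 8 subunits lower over all mgb-/- kidneys, Cct8 (-0.38, adjusted p = 0.0187) and Cct3 (-0.35, adjusted p = 0.0264). In severe kidneys 5 of 8 fell, with Cct6a at -1.20 (SE 0.38, adjusted p = 0.0355) and Tcp1 at -0.77 (SE 0.24, adjusted p = 0.0356). Of the 5 other Bag genes measured none passed. Proximal tubule markers moved beside these falls in severe kidneys, where 1 of 7 fell and the median was -0.55. Their summed level was 8.91 in severe replicate 5 and 10.2 to 10.6 in the other severe kidneys, and without that kidney 12 genes of the wider list fell and 1 rose in severe kidneys. Their part in the result was not tested.

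The small heat shock family apart from Hspb1 and Cryab was mixed. Of 7 genes measured, Hspb8, a Bag3 partner, rose by 1.01 (SE 0.32, adjusted p = 0.039) and Hspb7 by 0.94 (SE 0.27, adjusted p = 0.0261), while Cryaa, the lens crystallin partner of Cryab, fell by 2.15 (SE 0.42, adjusted p = 0.00345). Hspb7 and Hspb8 are known from muscle. Beside them, 2 of 6 smooth muscle markers rose over all mgb-/- kidneys, with a summed level of 4.80 to 5.60 in control and 4.92 to 7.08 in the mgb-/- groups. Of 4 striated muscle markers measured, Acta1 rose and Myh1 fell. Myh1 was well above background on 5 of 6 control arrays, but on only 1 of 7 mild, 2 of 5 moderate and 1 of 6 severe arrays. It passed the filter on dim probes only through the controls, so its fall is not read as a result. The defining marker Ckm was not well above background on any array, and the part of muscle cells was not tested.

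Of 9 regulators measured, 2 fell and 0 rose. Hsf1 fell by 0.31 (SE 0.09, adjusted p = 0.0234) and its binding partner Hsbp1 by 0.33 (SE 0.11, adjusted p = 0.0397). The largest difference was that of Hsf4, a heat shock factor, at 0.54 (SE 0.29, adjusted p = 0.228), named after its value was seen. Hsf2 was at -0.22 (adjusted p = 0.0779) and Xbp1, a transcription factor of the unfolded protein response, at -0.08 (adjusted p = 0.648). In the osmoprotective list, 4 of 6 genes rose over all mgb-/- kidneys, including the betaine transporter Slc6a12 by 1.24 (SE 0.33, adjusted p = 0.0165) and the taurine transporter Slc6a6 by 0.49 (adjusted p = 0.0345), together with Slc38a2 and the inositol transporter Slc5a3. Nfat5, the tonicity-responsive factor that acts on both these genes and HSP70, was at 0.51 (adjusted p = 0.0754) and rose by 0.86 in severe kidneys (SE 0.21, adjusted p = 0.011).

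**Figure D5:**
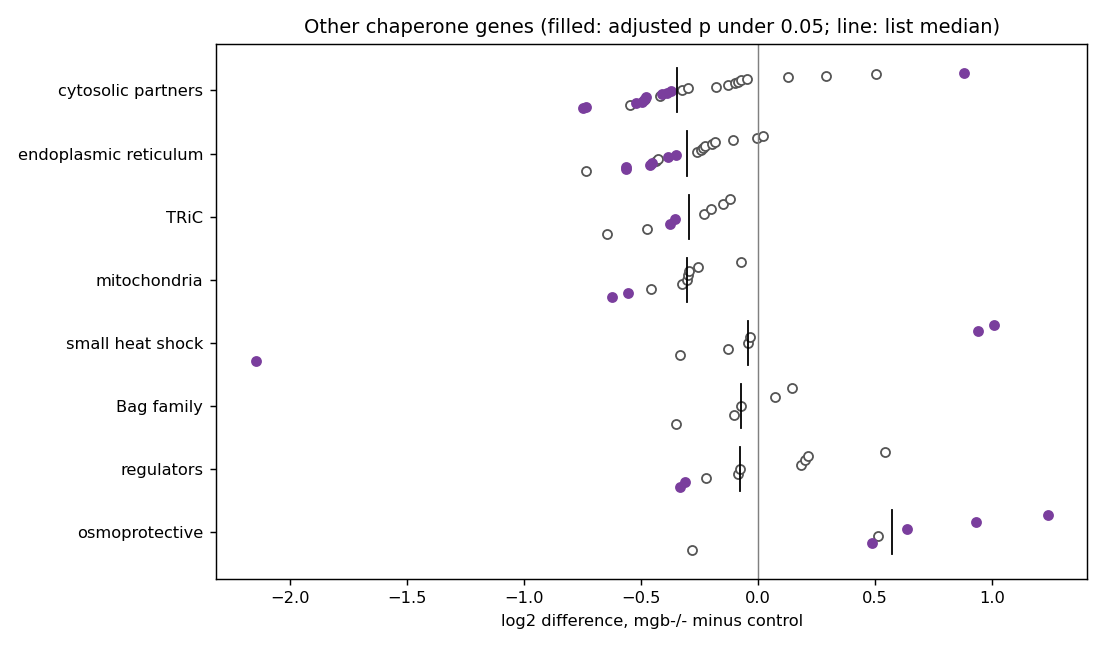
Log2 difference of mgb-/- minus control kidneys (x axis) for each measured gene of the wider lists (y axis), filled where the adjusted p was under 0.05, with a line at the list's median. Most filled points lie left of 0 in the 4 upper lists and right of 0 in the osmoprotective list.

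The share of probes that stood well above background ranged from 56.6% to 71.5% over the arrays, and all 13 probes of the members did so on all 24, as did the kidney markers Umod and Aqp2. The 6 urothelial markers rose in severe kidneys, with a summed level of 6.14 to 7.85 against 2.64 to 4.20 in control. All 8 immediate early genes rose over mgb-/- kidneys, with a sum of 5.19 to 7.32 against 3.70 to 4.29. Leukocyte markers gave 0 of 5 past the test. The part of these lists in the members' values was not tested.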

How the data were processed

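Per the labels, total RNA of 24 whole kidneys was labelled with Cy3 and hybridized to Agilent SurePrint G3 mouse arrays, 1 kidney per array. By the headers of the scanner output, the arrays lay on 3 slides of 8, each scanned together. The authors deposited the output of Agilent Feature Extraction 10.10, in which the processed signal (an intensity) had its background removed within the array and was not normalized between arrays. They also deposited a table of intensity values in whole numbers, with no background removed, that the authors had normalized between arrays by a method not given in the sources used here. Levels are log2 of the deposited processed signal minus log2 of its 75th percentile among the non-control spots of that array. Outlier spots were left out and spots of a probe were averaged. A probe was kept if at least 5 arrays had it well above background (38831 of 55681). No spot was saturated. Probes were named through their accessions in RefSeq (GRCm38.p6), which matched 26762; the rest kept their accession. The brightest probe stood for a gene. The number of arrays limits the precision.

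The fits used limma (version 3.58.1, R 4.3.3). One held mgb-/- and control as 2 groups, the other held control and the grades as 4 groups, and Benjamini-Hochberg adjustment ran over 27954 genes. The main fits held no term for the slide. Slides were treated as a batch only in an alternative with a slide block and in values taken within each slide. Alternatives were quantile, median and normexp scaling, the authors' table, other filters and probe rules, blocks, array weights, thresholds and the omission of each kidney. Normexp used median signals. The pair test was planned for 45 pairs and ran on 36, because Hspa1b had no probe. All members are named; from the wider lists, up to 4 rises and 4 falls per list and comparison with the lowest adjusted p were eligible, with Hsf1, Hsf2, Nfat5 and Xbp1. The members and lists were chosen with earlier results of these data known. The fits were tested on simulated data. Python 3.11.15 and matplotlib 3.10.9 made the figures.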

Additional observations from a re-analysis of the deposited data

Results flagged for a closer look

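In 5 of 36 groups of kidneys tested, 1 kidney of a member stood apart from the rest of its group by Dixon's test at the 95% level, and chance gives about 1 group in 20. Hspb1 was at -0.072 in severe replicate 4, with the next kidney at 4.17, and at 3.04 in control replicate 4, with the next at 3.98. Hspa1a was at 0.80 in severe replicate 6, where the nearest other severe kidney was at 1.71. Dnajb1 was at 5.09 in moderate replicate 5, with the next at 4.46. Hspa8 was at 6.91 in severe replicate 5, with the next at 7.50.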

How the results depend on the processing

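Hsp90aa1 stayed lower over all mgb-/- kidneys, with an adjusted p under 0.05, in 36 of 37 alternatives, the exception being the added 2-fold minimum, and its log2 difference ranged from -0.79 to -0.47. Hsph1 passed in 31 of 37. Scaling by the median moved the median of all genes to -0.15 in that comparison, against 0.01. The count of members past the test was 2 over all mgb-/- kidneys and 1 in each grade against control. It became 4, 2, 3 and 2 (all mgb-/-, mild, moderate and severe) at an adjusted p under 0.1, 0 in all 4 with a 2-fold minimum, and 4, 4, 3 and 3 with array quality weights, which also gave 1 (Dnajb1) between severe and moderate kidneys. Over all mgb-/- kidneys it was 1 with quantile normalization, 1 in the authors' table and 4 with normexp. In mild kidneys it was 2 with median scaling, normexp, a filter on all 24 arrays or a fit on the compared groups alone. In moderate kidneys it was 2 with normexp and in the authors' table. In severe kidneys it was 2 with quantile normalization, the authors' table or the mean of a gene's probes, and 0 in a fit on the compared groups alone. The cause was not tested. Shares of all genes are given for the main fit only, so the counts under other settings have none beside them and are not read as particular to chaperones.

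Leaving out 1 kidney at a time gave 1 to 4 members over all mgb-/- kidneys, 1 to 2 in mild, 0 to 3 in moderate and 1 to 3 in severe kidneys, and 0 between grades. The count of correlated pairs was 3, ranged from 0 to 7 on leaving out 1 kidney, and was 6 with the mean of a gene's probes and 9 with median scaling. With the replicate number as a replicate block the counts were 2, 1, 0 and 1. Same-numbered kidneys of different groups correlated between -0.55 and 0.65 (median 0.00489, 10 of 33 pairs above 0.1). Differently numbered kidneys were not compared, so these values cannot decide whether the numbers pair the samples. Of the wider list, 25 genes past the test over all mgb-/- kidneys became 16 with the replicate block and 46 with array weights, again without the share of all genes.

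Signs turned in these cases, all for members or pairs that had not passed. Scaled by the median, Bag3 in moderate kidneys was -0.10, Cryab -0.060 over all mgb-/- and -0.13 in moderate kidneys, Hspb1 in severe kidneys -0.044, and the correlation was 0.55 for Hsp90aa1 with Bag3 and 0.062 for Hspb1 with Dnajb1. With array weights, Cryab over all mgb-/- kidneys was -0.023 and Hspa8 in severe kidneys 0.16. With the replicate block, Cryab in moderate kidneys was -0.0030. Leaving out 1 kidney gave ranges that crossed 0 for Bag3 in moderate kidneys (-0.030 to 0.12), Cryab over all mgb-/- (-0.032 to 0.24) and in moderate kidneys (-0.30 to 0.19), Hspa1a in mild kidneys (-0.014 to 0.32), Hspa8 in severe kidneys (-0.11 to 0.074) and Hspb1 in severe kidneys (-0.25 to 0.97).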
